A study of Mus musculus with 36 samples.

Results

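Complement is a cascade of plasma and tissue proteins that tags cells and debris for removal, and this account covers 8 of its genes in mouse bone cultures. The genes were chosen by symbol from 30205 genes in the summed tables: C1qa, C1qb and C1qc, which encode the 3 chains of the recognition protein C1q; C3, the central component; Cfb and Cfp, which encode factor B and properdin of the alternative pathway; and C3ar1 and C5ar1, the receptors for the released fragments C3a and C5a. All 8 were found in the 36 RNA-seq libraries and passed the filter on low counts in every fit. The 8 genes lie on the minus strand of GRCm38, and C1qb (chromosome 4, 136880129 to 136886187), C1qc (136889804 to 136893065) and C1qa (136895917 to 136898803) stand side by side.

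The libraries came from mice 20 weeks old that were either wild-type control (WT) or Mir324-null (null), the latter lacking the gene of the microRNA miR-324. Bone marrow macrophages (BMM) were grown out of marrow in M-CSF and then kept for 5 days in M-CSF at 30 ng/mL. Cultures labelled osteoclasts (OC) started from the same kind of macrophages and received 30 ng/mL M-CSF together with 50 ng/mL RANK-L for 5 days. Osteoblast cultures (OB) grew out of collagenase-treated bone chips and spent 18 days in medium with 2 mM β-glycerophosphate and 50 µg/mL ascorbic acid. Each of the 6 groups had 6 libraries, and the labels do not say whether libraries of a group came from separate mice, so p-values measure the spread between libraries, which may be technical. The labels state neither the sex of the mice nor whether the deletion was limited to a cell type.

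Each library held 14118972 to 26347581 estimated counts, and no pair of replicates was close enough to be copies of 1 library. No check of the genotype labels against the deleted gene was made, since Mir324 was not analysed here. The culture labels were checked with marker lists, given as the summed TPM (a level corrected for transcript length and library size). The 10 osteoclast markers summed to 31382 to 35719 TPM in WT OC and to 258 to 587 TPM in null OC, with the calcitonin receptor gene Calcr at 0 in null OC, so the libraries labelled null OC held few of the osteoclast transcripts of their label. The 12 macrophage markers summed to 57113 to 67047 TPM in null OC, 18918 to 21624 in WT OC and 54218 to 65791 in WT BMM. The OB libraries also held macrophage transcripts, at 17964 to 22049 TPM in WT and 10507 to 15701 in null, and osteoclast transcripts, at 4161 to 5229 and 5426 to 8253 TPM. In bulk RNA of this kind, fewer cells of a type and less RNA per cell cannot be told apart.

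As background, the classical pathway starts when C1q binds antibody, dying cells or microbial surfaces and activates the proteases C1r and C1s; unlike most complement proteins, which the liver secretes, C1q is made mainly by macrophages and dendritic cells. The alternative pathway runs on C3 itself: factor B binds C3b and becomes the protease of the C3 convertase, and properdin holds that enzyme together. Cleavage of C3 and C5 releases C3a and C5a, which act on myeloid cells through C3AR1 and C5AR1. C3 and the 2 receptors are also known to act on bone, since complement fragments and C3 are among the signals that modulate osteoclast formation.

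The sequences of the deleted microRNA and of the stretches upstream of the genes are shown first. The mature strands of miR-324 (RefSeq, GRCm38.p6, plus strand, chr11:70012060-70012082 and chr11:70012095-70012114) are printed with the seed, bases 2 to 8, in capitals, since the seed is the part that pairs with targets.
mmu-miR-324-5p: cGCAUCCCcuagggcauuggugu
mmu-miR-324-3p: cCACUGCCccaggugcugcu
The complements of these seeds, GGGATGC and GGCAGTG, occurred in the longest annotated 3′ UTR of 0 of the 8 genes (GENCODE M21). For comparison, 7.39% and 12.67% of the 21028 genes with a 3′ UTR held them. The UTRs searched ran from 43 bases in C3 to 2685 bases in C3ar1, and no match says only that these letters are not in that stretch.

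Promoter windows, 250 bases before to 50 bases after the start site, were given for 6 of the 8 genes in RefSeq (GRCm38.p6), with no entry for C1qa and Cfb. They are shown because several of these genes moved together in the comparisons below. The letters AGGAAG, a core bound by ETS factors such as the myeloid factor PU.1, were found on either strand in C1qb (2 matches), C1qc (2), C3ar1 (1) and C5ar1 (3) and not in C3 or Cfp, against 35.4% of 32851 promoters. The C/EBP-type letters TTNCNNAA matched 4 times in C3, counting both strands and 1 place read on both, once each in C1qc and C5ar1, and in 40.7% of all promoters. An NF-kB-type motif, named here without its letters, matched C3 (5 times), C1qc (3), C1qb (2), C3ar1 (1) and Cfp (1), with some places read on both strands or again 1 base along, and is held by 50.8% of promoters. The interferon-stimulated response element (ISRE), named here without its letters, was not found in the 6 windows and is held by 3.4% of promoters. These letters were chosen after the promoters had been read, and a match is a description of sequence, not a bound site. Below, 30 bases around 1 match per gene are printed 5′ to 3′ along the gene, with the match in capitals (CTTCCT is AGGAAG on the other strand).
C1qb, first base of the match at -52 from the start site, chr4:136886235-136886264: caggacctgaaaCTTCCTgagggcagcagg
C1qc, first base of the match at -194, chr4:136893091-136893120: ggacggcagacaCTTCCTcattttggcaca
C3ar1, first base of the match at -5, chr6:122856145-122856174: catggaaaggccCTTCCTgtgcagtcagat
C5ar1, first base of the match at -71, chr7:16259392-16259421: tggggccagagaCTTCCTtccttttccaag
C3, first base of the match at -45, chr17:57228163-57228192: aggaaactatgTTGCGAAAttttgggcagt

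In WT BMM the C1q chains were among the most abundant transcripts of the cell. C1qb averaged 6329 ± 282 TPM (SD, n = 6, as for all values below) and ranked 11 among all genes, C1qc averaged 4897 ± 551 TPM and ranked 15, and C1qa averaged 2638 ± 115 TPM and ranked 34. The 3 chains together made up 1.39% ± 0.08 of all TPM in WT BMM and 0.26% ± 0.02 in WT OC. Properdin followed at 1149 ± 117 TPM, C5ar1 at 784 ± 95.3 and C3ar1 at 457 ± 33.1. C3 and Cfb lay far lower in the same libraries, at 3.00 ± 0.92 and 1.90 ± 0.66 TPM, ranks 9470 and 10188 of 11024 genes at or above 1 TPM. WT BMM thus held the transcripts of C1q, properdin and both receptors at high levels and those of C3 and factor B at low ones.

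**Figure D1:**
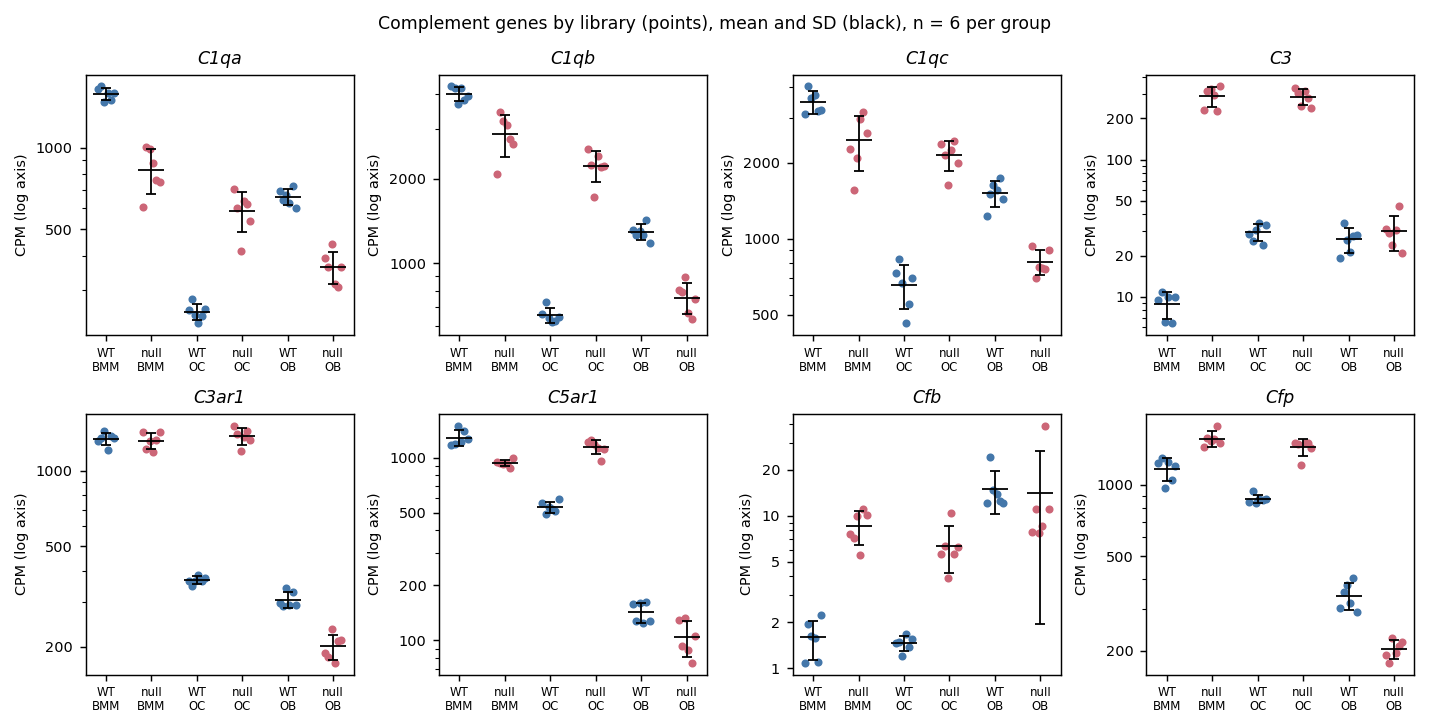
CPM (counts scaled for library size over all 36 libraries, log axis) of the 8 genes in each library (points) by group, with mean and SD in black and n = 6 per group. C3 sits between 227 and 341 CPM in null BMM and between 6.42 and 10.9 CPM in WT BMM, C3ar1 is lower in WT OC than in null OC with no overlap, and 1 null OB library stands apart for Cfb at 38.9 CPM.

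The null macrophages had less C1q and more C3. Of the 8 genes, 7 passed an adjusted p of 0.05 between null and WT BMM (quasi-likelihood F test of edgeR, p-values adjusted by Benjamini-Hochberg across every gene in the fit), where 52.3% of 11925 genes did. C3, Cfb and Cfp rose (3 genes; 27.0% of all genes rose) and C1qa, C1qb, C1qc and C5ar1 fell (4 genes; 25.4% fell). The median log2 fold change of the 8 was -0.23 against 0.02 over all genes.

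C1qa, the A chain of C1q, ran from 1469 through a median of 1591 to 1679 CPM in WT BMM and from 602 through 819 to 1004 CPM in null BMM. The libraries of the 2 genotypes did not overlap, and C1qa was 1.90-fold lower in null (log2 fold change -0.92, SE 0.10, adjusted p 1.60e-06). C1qb, the B chain, ran from 3674 through 4057 to 4251 CPM in WT and from 2071 through 2929 to 3450 CPM in null. Its fall was 1.39-fold, again without overlap (log2 fold change -0.47, SE 0.10, adjusted p 6.91e-04). C1qc, the C chain, ran from 3125 through 3425 to 4021 CPM in WT and from 1561 through 2455 to 3189 CPM in null. Its ranges touched, and it fell 1.42-fold (log2 fold change -0.50, SE 0.14, adjusted p 0.00883). The chains therefore did not keep one ratio: C1qa stood at 0.417 ± 0.010 of C1qb in TPM in WT BMM and at 0.305 ± 0.011 in null BMM, ranges that did not overlap, a difference given without a test.

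C3 showed the widest change of the 8 genes in BMM. It ran from 6.42 through 9.74 to 10.9 CPM in WT and from 227 through 306 to 341 CPM in null. Every null library lay far above every WT library, a 32.5-fold difference in mean CPM (log2 fold change 5.03, SE 0.16, adjusted p 2.24e-12). Estimated counts ran 116 to 229 in WT and 4168 to 6055 in null, so the level in WT was low and not at the detection limit. Part of the TPM in null went to C3-203, a short annotated transcript of 554 bases, which took 32.7% of the gene's TPM in null BMM and was listed at 0 in WT BMM. C3-203 was not limited to null: its share was 26.0% in WT OC, 28.4% in null OC, 37.6% in WT OB and 32.1% in null OB. The full-length C3-201 of 5136 bases alone averaged 2.48 ± 0.52 TPM in WT BMM and 71.9 ± 11.2 TPM in null BMM.

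Cfb, which lies on chromosome 17 (34856374 to 34862518), followed C3 at a much lower level. It ran from 1.09 through 1.60 to 2.23 CPM in WT BMM and from 5.48 through 8.78 to 11.1 CPM in null BMM, which is 5.38-fold higher without overlap (log2 fold change 2.42, SE 0.22, adjusted p 1.71e-07). Its values are uncertain, because 2246 of its 2825 exonic bases are shared with the read-through gene Gm20547 on the same strand, which was given 0 to 44 counts per library. Cfp ran from 966 through 1222 to 1293 CPM in WT BMM and from 1439 through 1547 to 1777 CPM in null BMM, a rise of 1.34-fold (log2 fold change 0.43, SE 0.08, adjusted p 2.00e-04). The transcripts of factor B and properdin thus rose with C3 in null BMM, that of properdin from a level that was already high.

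The 2 receptors parted in BMM. C3ar1 ran from 1204 through 1346 to 1428 CPM in WT and from 1186 through 1319 to 1423 CPM in null, with almost the same range (log2 fold change -0.01, 95% interval -0.14 to 0.11, adjusted p 0.866). C5ar1 ran from 1169 through 1240 to 1497 CPM in WT and from 882 through 932 to 999 CPM in null. It was 1.38-fold lower in null without overlap (log2 fold change -0.45, SE 0.07, adjusted p 4.51e-05).

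Macrophage markers moved with these genes in BMM, but not in one direction. Of the 12, 3 rose and 7 fell, and their summed level was 60843 to 65240 TPM in null against 54218 to 65791 in WT. The M-CSF receptor Csf1r did not pass the test (1728 ± 140 CPM in WT, 1829 ± 179 in null, log2 fold change 0.09, adjusted p 0.321), so C1qa relative to Csf1r was 4.07 ± 0.15 in WT and 2.02 ± 0.31 in null. The mannose receptor Mrc1 fell by 2.30 and the F4/80 gene Adgre1 rose by 1.99 on the log2 scale. The summed levels of other cell types' markers were higher in null BMM for some lists and lower for others. The 10 neutrophil markers summed to 44.2 to 107 TPM in null against 2.17 to 3.57 in WT. Of these, S100a9, Retnlg and Elane were at 0 in both genotypes, Ltf in null and Ly6g in WT. The 8 fibroblast and stromal markers summed to 4.14 to 7.49 TPM in null against 0.195 to 1.22 in WT, with Pdgfra at 0 in null and Dcn in WT. The 8 adipocyte markers summed lower in null, at 94.2 to 186 TPM against 282 to 603. Of these, Plin1, Cidec, Lep and Cfd were at 0 in both genotypes, and Adipoq was at 0 throughout null only. The 11 osteoblast markers also summed lower in null, at 1728 to 2454 TPM against 5056 to 7979. In WT, the group with the higher sum, Sp7, Alpl and Bglap2 were at 0. Gene by gene the lists were mixed: of 5 osteoblast markers tested 3 rose and 2 fell, and of 3 adipocyte markers 1 rose and 2 fell. Of 2 neutrophil markers tested 1 rose and 1 did not pass, and of 2 fibroblast and stromal markers tested 2 rose. The part of these cell types in the differences was not tested.

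Most of the 8 genes were lower with RANK-L in WT cells. Of the 8, 7 passed the test between WT OC and WT BMM, where 60.5% of 12661 genes did; 6 fell (30.1% of all genes) and C3 rose (30.4% of all genes), and the median log2 fold change was -1.57 against -0.00 over all genes. C1qa fell from a mean of 1578 ± 82.1 to 249 ± 17.4 CPM (log2 fold change -2.67, SE 0.11, adjusted p 1.28e-17). C1qb fell from 4004 ± 238 to 654 ± 41.4 CPM, and C1qc from 3491 ± 353 to 657 ± 132 CPM, with log2 fold changes of -2.62 and -2.41. The C1q chains were thus 6.33-fold, 6.12-fold and 5.31-fold lower in WT OC, with no overlap between libraries. All 12 macrophage markers also fell, with a median log2 fold change of -1.73, and C1q summed over its chains stood at 0.234 ± 0.021 of the macrophage list in WT BMM and at 0.125 ± 0.009 in WT OC. Lyz2 alone made up 77.0% of that list's TPM in WT BMM and 58.0% in WT OC.

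C3ar1 fell with RANK-L in WT from 1335 ± 75.4 to 367 ± 13.1 CPM (log2 fold change -1.87, SE 0.06, adjusted p 8.68e-20). C5ar1 fell from 1289 ± 133 to 536 ± 35.7 CPM (log2 fold change -1.27, SE 0.07, adjusted p 2.64e-15). C5ar1 was thus kept at 0.416 of its BMM mean and C3ar1 at 0.275. Cfp fell from 1166 ± 130 to 874 ± 37.1 CPM, 1.33-fold (log2 fold change -0.42, SE 0.07, adjusted p 5.22e-06). C3 went the other way, from 8.89 ± 1.92 to 29.6 ± 4.27 CPM (log2 fold change 1.73, SE 0.14, adjusted p 2.32e-11). Cfb averaged 1.59 ± 0.45 CPM in WT BMM and 1.46 ± 0.16 CPM in WT OC (log2 fold change -0.13, 95% interval -0.60 to 0.33, adjusted p 0.649).

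In null cells the same treatment moved few of these genes. Of the 8, 3 passed the test between null OC and null BMM, where 12.9% of 12661 genes did (1628 genes, and between 810 and 2143 with 1 library left out; 810, 840 and 948 without null BMM replicates 3, 2 and 4, and 1046 without null OC replicate 3): C1qa and C1qb fell (6.07% of all genes) and C5ar1 rose (6.78%). C1qa went from 829 ± 155 to 587 ± 99.2 CPM (log2 fold change -0.49, SE 0.10, adjusted p 0.00516). C1qb went from 2872 ± 491 to 2226 ± 280 CPM (log2 fold change -0.36, SE 0.09, adjusted p 0.0126). The libraries of both genes overlapped. C5ar1 went from 936 ± 38.8 to 1144 ± 101 CPM (log2 fold change 0.30, SE 0.07, adjusted p 0.00718). The other 5 gave log2 fold changes of -0.19 for C1qc, 0.00 for C3, 0.06 for C3ar1, -0.41 for Cfb and -0.11 for Cfp. C3 was 289 ± 49.3 CPM in null BMM and 288 ± 38.8 CPM in null OC, means within 1 SD of each other. Without null OC replicate 4, the highest for Cfb at 10.3 CPM, Cfb passed the test with a log2 fold change of -0.61 and adjusted p 0.0433.

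**Figure D2:**
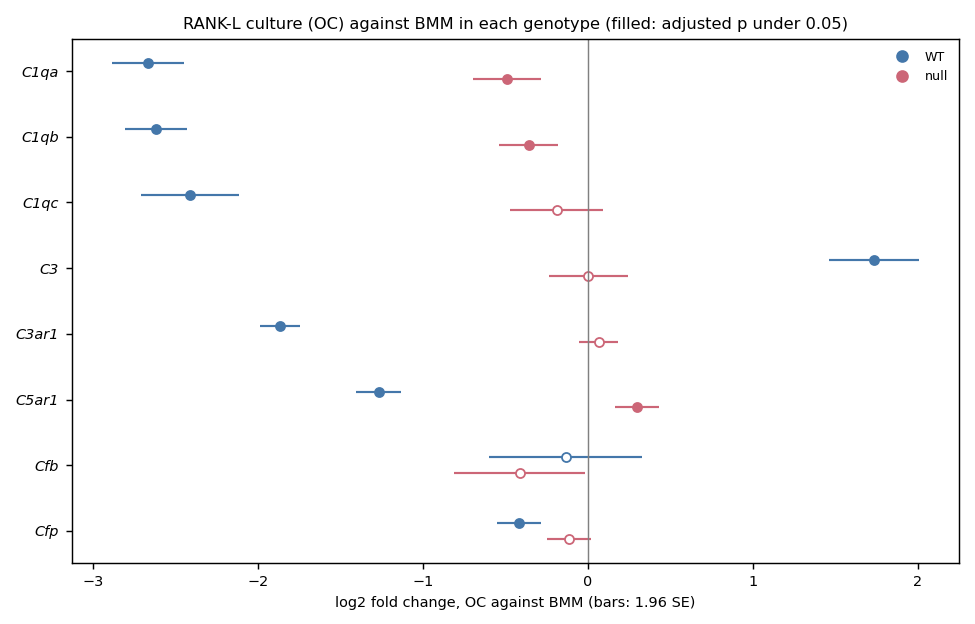
Log2 fold change of OC against BMM for each of the 8 genes in WT (blue) and null (red), from fits with 6 libraries per group; bars are 95% intervals from the SE, and filled points passed an adjusted p of 0.05. The WT points of C1qa, C1qb and C1qc lie at -2.67, -2.62 and -2.41, and the null points at -0.49, -0.36 and -0.19.

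The response to RANK-L itself differed between genotypes for 7 of the 8 genes (interaction term), where 51.4% of all genes did; 6 differences were positive (25.3% of all genes) and that of C3 negative (26.1%). The difference was 2.18 (SE 0.15, adjusted p 1.35e-12) on the log2 scale for C1qa, 2.26 (SE 0.13, adjusted p 3.25e-14) for C1qb and 2.22 (SE 0.21, adjusted p 1.35e-09) for C1qc. It was 1.93 (SE 0.09, adjusted p 1.76e-16) for C3ar1 and 1.56 (SE 0.10, adjusted p 1.27e-13) for C5ar1. The C1q chains and the receptors thus shared a direction: the fall seen in WT was smaller in null for C1qa and C1qb and did not pass the test or was a rise for the others. For C3 the difference was -1.73 (SE 0.19, adjusted p 1.13e-08), from a rise of 1.73 in WT and a change of 0.00 in null. For Cfp it was 0.31 (SE 0.10, adjusted p 0.00888), which became 0.21 (adjusted p 0.0554) once counts were corrected for transcript length and GC content, and Cfb did not pass (-0.28, SE 0.31, adjusted p 0.485).

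All 8 genes were higher in null OC than in WT OC, where 65.6% of 12121 genes passed the test and 32.4% were higher. These libraries also enter the RANK-L comparisons above. The median log2 fold change of the 8 was 1.74 against -0.03 over all genes, and none of the 8 had overlapping WT and null libraries. The share of all genes without overlap was not counted, so absence of overlap is a description here and in the other comparisons. C1qa ran from 226 through 248 to 278 CPM in WT OC and from 418 through 610 to 707 CPM in null OC (log2 fold change 1.24, SE 0.10, adjusted p 7.93e-09). C1qb ran from 618 through 645 to 732 CPM in WT and from 1727 through 2228 to 2554 CPM in null (log2 fold change 1.78, SE 0.08, adjusted p 4.68e-12). C1qc ran from 463 through 684 to 832 CPM in WT and from 1642 through 2199 to 2435 CPM in null (log2 fold change 1.71, SE 0.13, adjusted p 9.12e-09). The A chain had the smallest log2 fold change of the 3 (not tested as a difference), and stood at 0.277 ± 0.018 of C1qb in TPM in null OC against 0.403 ± 0.010 in WT OC.

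C3 ran from 24.1 through 29.8 to 34.8 CPM in WT OC and from 240 through 295 to 335 CPM in null OC, 9.72-fold higher (log2 fold change 3.29, SE 0.11, adjusted p 1.23e-13). Cfb ran from 1.199 through 1.48 to 1.67 CPM in WT and from 3.93 through 5.94 to 10.3 CPM in null (log2 fold change 2.14, SE 0.22, adjusted p 2.06e-07). Cfp ran from 840 through 867 to 944 CPM in WT and from 1217 through 1494 to 1508 CPM in null (log2 fold change 0.73, SE 0.06, adjusted p 6.47e-09). The transcripts of the convertase protease, its stabiliser and its substrate were therefore each higher, that of properdin by the smallest factor, 1.65-fold. C3ar1 ran from 347 through 365 to 386 CPM in WT OC and from 1190 through 1377 to 1506 CPM in null OC, 3.72-fold higher (log2 fold change 1.91, SE 0.06, adjusted p 3.24e-14). C5ar1 ran from 494 through 532 to 592 CPM in WT and from 965 through 1162 to 1244 CPM in null, 2.13-fold higher (log2 fold change 1.10, SE 0.07, adjusted p 1.75e-10).

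Macrophage markers moved in the same direction in OC. Of the 12, 9 rose, 1 fell (Cd68, by 0.27 on the log2 scale) and 2 did not pass, while 10 of 10 osteoclast markers fell. Relative to the summed macrophage list, C1q stood at 0.125 ± 0.009 in WT OC and at 0.116 ± 0.013 in null OC, ranges that overlapped. Relative to Csf1r, which rose by 0.40 on the log2 scale, C1qa stood at 0.836 ± 0.104 and 1.49 ± 0.20. C1qb relative to Csf1r was 2.08 ± 0.25 in WT OC and 5.38 ± 0.61 in null OC. Lyz2 made up 58.0% of the list's TPM in WT OC and 81.3% in null OC, so the first ratio rests largely on that gene. As in BMM, neutrophil markers summed higher in null OC, at 41.4 to 55.9 TPM against 2.30 to 4.24 in WT OC. Of these, Ltf, Retnlg, Elane and Ly6g were at 0 in both genotypes, Ngp in null, and S100a9 and Camp in WT. Fibroblast and stromal markers also summed higher in null OC (5.00 to 20.4 against 0.213 to 0.406 TPM). Adipocyte markers summed lower (149 to 196 against 504 to 626 TPM) and osteoblast markers higher (2161 to 3693 against 1682 to 2089 TPM). Gene by gene, of 2 neutrophil markers tested 1 rose and 1 fell, and of 3 adipocyte markers 1 rose and 2 fell. Of 3 fibroblast and stromal markers tested 3 rose, and of 5 osteoblast markers 3 rose and 2 did not pass. The part of these cell types in the OC differences was not tested.

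**Figure D3:**
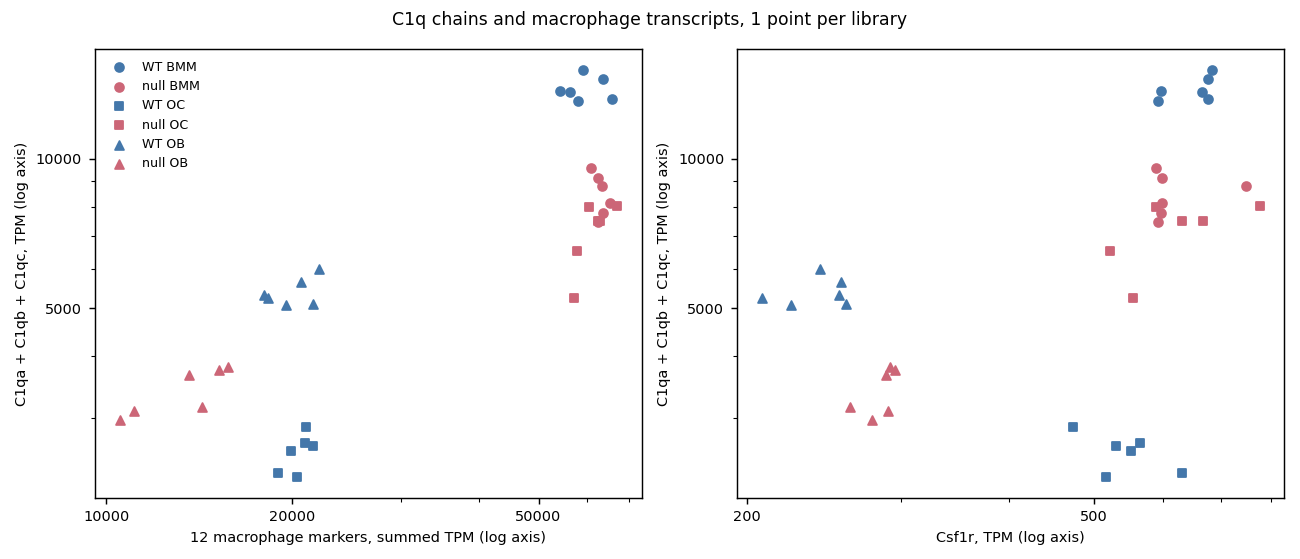
Summed TPM of C1qa, C1qb and C1qc (vertical, log axis) against the summed TPM of 12 macrophage markers (left) and against Csf1r (right, log axes), 1 point per library in 6 groups of 6. WT BMM libraries (13088 to 15102 TPM of C1q) lie above null BMM libraries (7468 to 9590) over a similar range of macrophage transcripts, and WT OC libraries (2284 to 2889) lie below null OC libraries (5240 to 8036) in C1q while their Csf1r ranges overlap.

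In WT OB cultures the 8 genes differed from WT BMM in every case, where 77.8% of 14004 genes did. C3 and Cfb were higher (41.9% of all genes were) and the other 6 lower (35.9%). C3 averaged 26.3 ± 5.49 CPM against 8.89 ± 1.92 (log2 fold change 1.55, SE 0.18, adjusted p 3.44e-08), and Cfb 14.9 ± 4.68 against 1.59 ± 0.45 (log2 fold change 3.20, SE 0.38, adjusted p 5.49e-08). C5ar1 was the lowest relative to BMM, at 143 ± 18.0 CPM against 1289 ± 133 (log2 fold change -3.18, SE 0.12, adjusted p 7.07e-19). C1qa, C1qb and C1qc were 2.39-fold, 3.10-fold and 2.30-fold lower, C3ar1 4.33-fold and Cfp 3.42-fold. The C1q chains thus kept a high level in cultures labelled osteoblasts: C1qc and C1qb ranked 51 and 55 by TPM in WT OB, and C1q stood at 0.271 ± 0.021 of the macrophage list there, against 0.234 ± 0.021 in WT BMM.

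The null OB cultures had less of the macrophage-type complement genes. Of the 8, 6 passed the test between null and WT OB and all 6 fell, where 32.5% of 13607 genes passed and 16.9% fell. The median log2 fold change was -0.69 against 0.00 over all genes. Once counts were corrected for transcript length and GC content, 16.8% of all genes passed and again 6 of the 8.

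C1qa ran from 599 through 657 to 724 CPM in WT OB and from 307 through 365 to 440 CPM in null OB (log2 fold change -0.86, SE 0.08, adjusted p 6.20e-06). C1qb ran from 1183 through 1286 to 1430 CPM in WT and from 635 through 770 to 895 CPM in null (log2 fold change -0.78, SE 0.08, adjusted p 8.76e-06). C1qc ran from 1228 through 1532 to 1740 CPM in WT and from 701 through 773 to 938 CPM in null (log2 fold change -0.91, SE 0.09, adjusted p 7.37e-06). The chains fell by 1.71-fold to 1.88-fold, and in none of them did the genotypes overlap. C3ar1 ran from 290 through 297 to 343 CPM in WT and from 173 through 200.01 to 235 CPM in null (log2 fold change -0.62, SE 0.07, adjusted p 3.22e-05). Cfp ran from 290 through 336 to 406 CPM in WT and from 178 through 202 to 227 CPM in null (log2 fold change -0.76, SE 0.08, adjusted p 2.08e-05). C5ar1 ran from 125 through 143 to 161 CPM in WT and from 75.4 through 99.3 to 132 CPM in null, the one of the 6 whose libraries overlapped (log2 fold change -0.47, SE 0.13, adjusted p 0.0164).

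C3 and Cfb did not pass the test in OB. C3 ran from 19.3 through 27.0 to 34.7 CPM in WT OB and from 20.99 through 29.8 to 46.4 CPM in null OB (log2 fold change 0.21, 95% interval -0.16 to 0.57, adjusted p 0.436). Cfb ran from 12.035 through 13.2 to 24.2 CPM in WT and from 7.66 through 9.78 to 38.9 CPM in null (log2 fold change -0.07, SE 0.42, adjusted p 0.923). A single library sets that value: without null OB replicate 5, at 38.9 CPM, Cfb passed the test with a log2 fold change of -0.70 and adjusted p 0.0118. The other null OB libraries lay between 7.66 and 11.01 CPM, all below the WT range of 12.035 to 24.2 CPM.

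Macrophage markers fell in the same libraries. Of the 12, 0 rose, 9 fell and 3 did not pass, with Lyz2 at -0.82 and Csf1r at 0.05 (adjusted p 0.520) on the log2 scale. C1q relative to the summed macrophage list was 0.271 ± 0.021 in WT OB and 0.257 ± 0.024 in null OB, ranges that overlapped, whereas C1qa relative to Csf1r was 4.69 ± 0.29 and 2.48 ± 0.30, ranges that did not. Osteoblast markers moved the other way, 6 of 11 rising and 0 falling. The part of macrophage number in the fall was not tested.

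**Figure D4:**
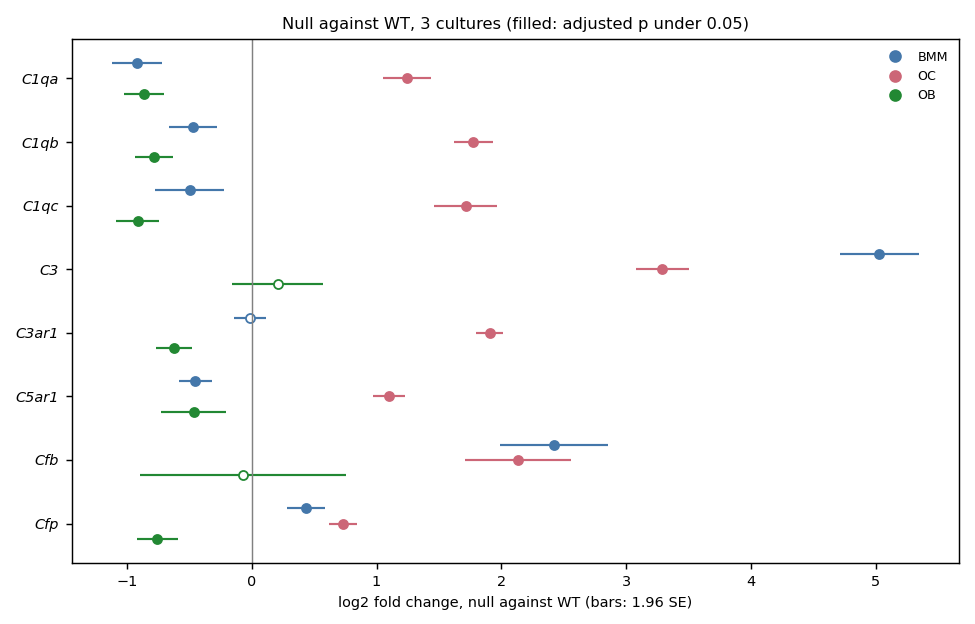
Log2 fold change of null against WT for the 8 genes in BMM (blue), OC (red) and OB (green), each from a fit of 12 libraries; bars are 95% intervals from the SE, and filled points passed an adjusted p of 0.05. C1qa, C1qb, C1qc and C5ar1 lie below 0 in BMM and OB and above 0 in OC, while C3 lies at 5.03, 3.29 and 0.21.

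The genotype difference itself was compared between OB and BMM by an interaction term, where 46.8% of 14004 genes passed. Of the 8, 4 passed and each was more negative in OB (24.6% of all genes), with none more positive (22.2%): C3 (-4.81, SE 0.25, adjusted p 2.01e-13), Cfb (-2.48, SE 0.50, adjusted p 2.92e-04), Cfp (-1.17, SE 0.12, adjusted p 1.30e-08) and C3ar1 (-0.59, SE 0.10, adjusted p 4.63e-05). Cfp thus rose in null BMM and fell in null OB, with the difference past the test. The fall of C1q and C5ar1 was not shown to differ between the cultures: the interaction was 0.07 for C1qa (SE 0.14, adjusted p 0.696), -0.29 for C1qb (SE 0.13, adjusted p 0.0716), -0.40 for C1qc (SE 0.17, adjusted p 0.0633) and 0.00 for C5ar1 (SE 0.16, adjusted p 1). These values were not stable for C1q. With that same length and GC correction C1qa gave 0.46 (adjusted p 0.00390), and without null BMM replicate 1 C1qb gave -0.37 (adjusted p 0.00923), while without null BMM replicate 2 C1qc gave -0.49 (adjusted p 0.00842). C1qb also passed without null OB replicate 3 (-0.33), and C1qc without null BMM replicate 3 (-0.45), WT OB replicate 1 (-0.45) or null OB replicate 1 (-0.44).

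Set in order of TPM, the groups ran differently from gene to gene. For C1qb the order was WT BMM (6329 ± 282), null BMM (4090 ± 435), null OC (3339 ± 459), WT OB (2094 ± 125), null OB (1387 ± 176) and WT OC (1121 ± 51.8), in which null BMM overlapped null OC and null OB overlapped WT OC. C1qc had the same order, with overlap also between WT BMM and null BMM and between null OC and WT OB. For C1qa the order was WT BMM (2638 ± 115), null BMM (1247 ± 146), WT OB (1128 ± 77.4), null OC (932 ± 175), null OB (706 ± 98.7) and WT OC (451 ± 20.4), in which the first and the last stood apart and the groups between overlapped in turn. For C3 the order was null BMM (108 ± 16.3), null OC (106 ± 11.2), null OB (15.0 ± 5.74), WT OC (12.6 ± 2.97), WT OB (11.96 ± 3.76) and WT BMM (3.00 ± 0.92). The 2 highest groups overlapped and so did the next 3, which leaves 3 levels of C3. For C3ar1, WT BMM (457 ± 33.1), null OC (444 ± 47.8) and null BMM (411 ± 60.3) overlapped in turn, and WT OC (137 ± 10.5), WT OB (108 ± 8.04) and null OB (79.8 ± 9.81) followed without overlap. For C5ar1 the order was WT BMM (784 ± 95.3), null OC (657 ± 57.9), null BMM (518 ± 50.6), WT OC (353 ± 31.0), WT OB (88.8 ± 11.2) and null OB (73.4 ± 16.8), with overlap in the first and the last pair. Properdin was held between 934 ± 46.9 and 1403 ± 142 TPM in the 4 groups of marrow cells, each overlapping its neighbour, and between 233 ± 25.1 and 344 ± 44.4 in the 2 OB groups.

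Across the 36 libraries the log2 CPM values of the C1q chains followed one another, with Pearson's r of 0.93 between C1qa and C1qb, 0.91 between C1qa and C1qc and 0.95 between C1qb and C1qc. C5ar1 followed C3ar1 (0.93) and Cfp (0.96). C3 followed none of them closely, its highest r among the 8 being 0.47 with Cfp. These libraries fall into 6 groups, so the values describe shared group levels and carry no p.

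Among 10225 other genes, the 3 with the pattern most like each member were named by the same measure. For C1qa these were Lyl1 (r 0.98), Selenop and Fcgr3, for C1qb Tnfaip8l2 (0.98), Rab3il1 and Sirt2, and for C1qc Abhd12 (0.97), Rab3il1 and Rftn1. For C3 they were the transporter gene Slc13a3 (0.98), the urea cycle gene Ass1 (0.97) and Cd55 (0.97), which is itself a complement regulator. For C3ar1 they were Cd53 (0.99), Ctsd and Slc11a1, for C5ar1 Irf5 (0.99), Lipa and Myo1f, and for Cfp Ugt1a7c (0.99), Ptafr and Pid1. Cfb had Slpi (0.93), Socs3 and Mmp19.

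The rest of the cascade was read from a list of 51 other complement genes, of which C4a was not among the summed genes. In BMM 14 of 19 tested passed (5 higher, 9 lower), in OC 15 of 18 (6 higher, 9 lower) and in OB 13 of 28 (5 higher, 8 lower), against the 52.3%, 65.6% and 32.5% of all genes given above. Their median log2 fold changes were -0.08, -0.18 and -0.09, against 0.02, -0.03 and 0.00 over all genes, so the list as a whole did not follow the 8 genes in OC. In WT OC against WT BMM 14 of 20 passed, where 60.5% of all genes did, and in null OC against null BMM 3 of 20, where 12.9% did, so both counts lie near the share of all genes.

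Of the initiators, Fcna, the recognition protein ficolin A of the lectin pathway, was lower in null in all 3 cultures. It averaged 64.2 ± 5.32 CPM in WT BMM and 20.6 ± 0.85 in null BMM (log2 fold change -1.63), 103 ± 7.90 and 20.3 ± 3.98 in OC (-2.35), and 21.6 ± 2.57 and 12.9 ± 2.10 in OB (-0.75). C1ra, which encodes the protease C1r, went the other way in marrow cells, from 5.07 ± 0.90 to 10.5 ± 1.81 CPM in BMM (1.06) and from 1.76 ± 0.37 to 11.3 ± 2.34 in OC (2.70). In WT OB the C1 proteases were higher than in WT BMM, with C1ra at 93.4 ± 13.0 CPM and C1s1 at 107 ± 13.2, and C1s1 was 80.0 ± 14.6 in null (-0.43). The classical component C2 and the lectin protease gene Masp1 also fell in null OB, by 0.58 and 0.24 on the log2 scale. The OB cultures thus held transcripts of C1q beside those of C1r, C1s and C2, whereas C2 stayed under 1 CPM in each BMM and OC group. C4b, on the same list, was low in OB, at 1.04 CPM in WT and 1.43 in null (adjusted p 0.370). Colec12, a scavenger receptor of the collectin family, fell in BMM (130 ± 10.9 to 95.001 ± 9.95 CPM) and rose in OC (49.9 ± 2.09 to 89.0 ± 12.8).

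Of the terminal pathway and of factor D of the alternative pathway, 8 genes on the list, little was measured. Between null and WT, 1 of them, C8g, was tested and did not pass in any culture. Its adjusted p was 0.987 in BMM, 0.843 in OC and 0.0588 in OB, where it averaged 2.08 CPM in WT and 1.52 in null. Hc, which encodes C5, the source of the ligand of C5ar1, was listed at a group mean of at most 0.0163 CPM, and Cfd, the factor D that cleaves factor B, at most 0.0154 CPM. C7 and C8b were at 0 in every library, which allows up to 3 counts in each and covers counting error only. At these depths no difference in Hc, Cfd, C7 or C8b was detectable.

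Of the other receptors, Itgam and Itgb2 encode the chains of complement receptor 3. Itgam moved as C1q did, from 494 ± 19.7 to 346 ± 67.5 CPM in BMM and from 240 ± 29.1 to 383 ± 79.6 in OC, and did not pass in OB (-0.06, adjusted p 0.599). Itgb2 rose in both, from 1029 ± 41.4 to 1279 ± 59.6 CPM in BMM and from 925 ± 37.2 to 1364 ± 126 in OC. Itgax, the partner chain of complement receptor 4, fell in null BMM (13.2 ± 3.50 to 2.86 ± 0.31 CPM) and null OC (12.4 ± 2.30 to 3.56 ± 1.198) and rose in null OB (4.42 ± 0.81 to 6.74 ± 2.04). Cd93, first described as a C1q receptor, changed as the C1q chains did, by -0.85 in BMM, 1.33 in OC and -0.32 in OB. Other genes on the list did not follow C1q in this way. Lrp1 gave -1.16 in BMM, 0.13 in OC (adjusted p 0.120) and 0.73 in OB. Calr gave -0.08 in BMM (adjusted p 0.663), -0.45 in OC and -0.03 in OB (adjusted p 0.626). C1qbp, listed with the regulators, gave -0.24 in BMM, -1.25 in OC and -0.05 in OB (adjusted p 0.628). C5ar2, the second C5a receptor, fell in BMM (23.1 ± 2.53 to 17.1 ± 1.74 CPM) and in OC (19.7 ± 1.25 to 16.4 ± 3.07, adjusted p 0.0444). Its difference between those cultures did not pass (0.17, SE 0.15, adjusted p 0.346).

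Of the regulators, Cd55, which speeds the decay of C3 convertases on the cell's own membrane, had a pattern like that of C3. It averaged 0.28 ± 0.19 CPM in WT BMM and 50.6 ± 4.11 in null BMM (log2 fold change 7.48, SE 0.20, adjusted p 8.96e-14), and 5.09 ± 0.53 and 46.8 ± 6.33 CPM in OC (3.21, SE 0.11, adjusted p 1.44e-13). In OB it was 2.41 ± 0.78 and 1.88 ± 0.56 CPM (-0.38, adjusted p 0.284). Cd59a, which blocks the membrane attack complex, rose with RANK-L in WT from 18.2 ± 0.93 to 83.2 ± 5.46 CPM and was 15.7 ± 2.71 CPM in null OC. Serping1, the inhibitor of the C1 proteases, averaged 573 ± 88.2 CPM in WT OB and 547 ± 100.3 in null OB and at most 0.651 CPM in any BMM or OC group, and Clu (clusterin) fell in null OB from 48.7 ± 9.43 to 28.0 ± 6.45 CPM.

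**Figure D5:**
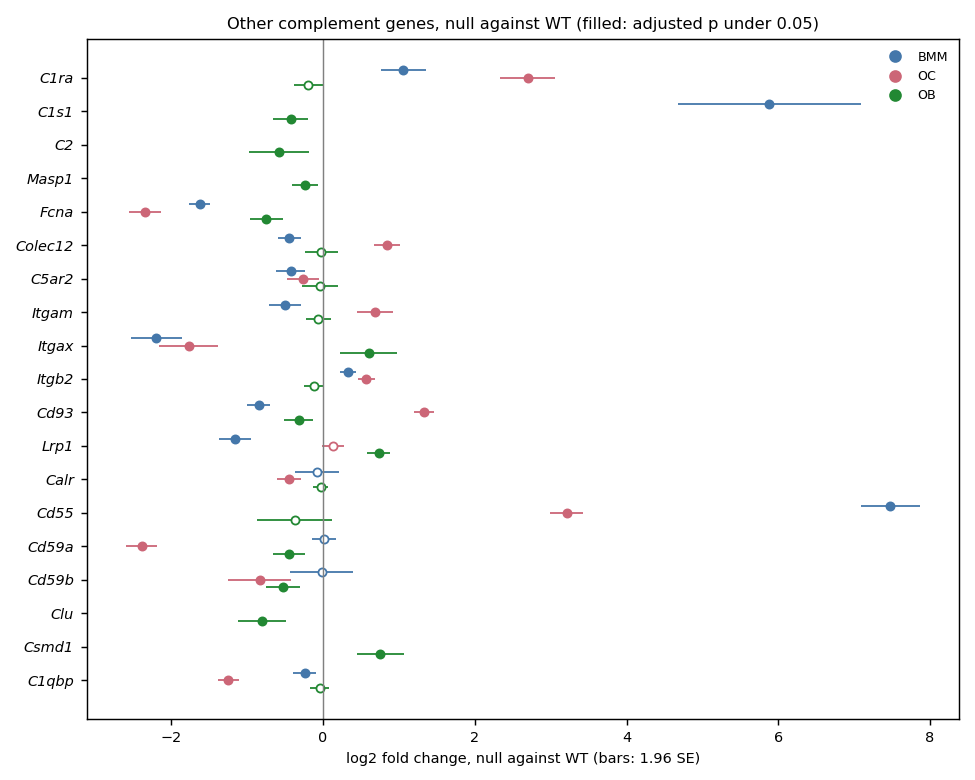
Log2 fold change of null against WT in BMM (blue), OC (red) and OB (green) for the other complement genes that passed the test in at least 1 culture with a mean of at least 5 CPM in a group (1 gene of this rule is not shown); bars are 95% intervals from the SE, filled points passed an adjusted p of 0.05, and a culture is missing where the gene did not pass the filter on low counts. Cd55 lies at 7.48 in BMM and 3.21 in OC, Fcna lies below 0 in the 3 cultures, and Cd93 lies at -0.85, 1.33 and -0.32.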

How the data were processed

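RNA was sequenced from 36 libraries of mouse BMM, OC and OB cultures, 6 per group, grouped by the labels. Per the file headers, each deposited table lists transcripts with length, effective length, TPM and an estimated count; the submitters' processing notes name kallisto and DESeq2 without versions, and the build GRCh38, although the transcript identifiers are those of mouse, so the build is not settled by the sources used here. Of 88198 transcripts, 97.5% were matched to GENCODE M21 (GRCm38), and unmatched ones (0.63% to 0.97% of a library's counts) were left out. The TPM values deposited by the authors were summed per gene and used for levels between genes. Estimated counts were summed per gene (30205 genes) and rounded. CPM values use TMM factors over all 36 libraries.

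Tests used edgeR 4.0.16 with limma 3.58.1 in R 4.3.3 (filterByExpr, TMM, robust quasi-likelihood F test; SE from F), with Benjamini-Hochberg adjustment over all genes tested and a threshold of 0.05. Genotype comparisons used the 12 libraries of a culture, and RANK-L, OB against BMM and the interactions used 24. The steps were tested on simulated data. Likeness of patterns was Pearson's r of log2 CPM (prior count 2) among genes with at least 10 CPM in a group. The 8 genes are named in every comparison. Other complement genes could be named where they passed the test with at least 5 CPM in a group. Not every such gene is named in the text. Further names come from the marker lists, stand beside a count or mark a low level. The genes and lists were chosen with earlier results of these data known. Alternatives were DESeq2 1.42.0, RLE scaling, a filter at 10 counts on average and none, a replicate block, offsets for average transcript length and for a lowess trend (span 0.3) with length and GC content, that offset with the block, all 36 libraries, and leaving out each library. Reads carry no molecular identifiers, and the labels give no batch or date, so batch and genotype cannot be told apart.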

Additional observations from a re-analysis of the deposited data

Results flagged for a closer look

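In 4 of 48 sets of 6 libraries, 1 library stood apart from the other 5 by Dixon's criterion, which chance does in about 1 in 20 sets. Cfb was 24.2 CPM in WT OB replicate 2 against 12.035 to 14.8 in the others, and 38.9 CPM in null OB replicate 5 against 7.66 to 11.01. Cfp was 944 CPM in WT OC replicate 2 against 840 to 875 in the others, and 1217 CPM in null OC replicate 3 against 1426 to 1508.

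The response to RANK-L differed between null and WT by a test of the difference for 7 genes, on the log2 scale by 2.18 for C1qa, 2.26 for C1qb, 2.22 for C1qc, -1.73 for C3, 1.93 for C3ar1, 1.56 for C5ar1 and 0.31 for Cfp. The genotype difference differed between OB and BMM by the same kind of test for 4 genes, by -4.81 for C3, -0.59 for C3ar1, -2.48 for Cfb and -1.17 for Cfp.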

How the results depend on the processing

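Of 64 log2 fold changes of the 8 genes, 54 kept their direction and their side of the threshold under every alternative; of 1824 recomputed values, 1778 did so, 35 changed sign, 10 came past the threshold and 1 fell below it. The results that changed sign were -0.29 (C1qb, OB against BMM interaction), -0.28 (Cfb, RANK-L interaction) and 5 that lay from -0.07 (Cfb in OB) to 0.07 (C1qa, OB against BMM interaction). With counts corrected for length and GC, without and with the replicate block, C3ar1 in BMM gave 0.096 and 0.096, C3 in null OC against null BMM -0.097 and -0.085, and, in the OB against BMM interaction, C1qb 0.048 and 0.048 and C5ar1 -0.12 and -0.14. C5ar1 there gave -0.0099 with the block alone. C3 in null OC against null BMM gave -0.0046 with no filter, -0.0044 with all 36 libraries and -0.084 with the offset for average length, which also gave 0.14 for the Cfb RANK-L interaction. Leaving out 1 library gave -0.044 to 0.016 for C3ar1 in BMM, -0.70 to 0.12 for Cfb in OB, -0.057 to 0.060 for C3 in null OC against null BMM, and, in the OB against BMM interaction, -0.00011 to 0.15 for C1qa and -0.066 to 0.096 for C5ar1.

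Of all genes, 4420 passed between null and WT OB, 2289 after the length and GC correction and 1979 with it and the block. For null OC against null BMM 1628 passed, 1016 with the correction and the block, and 810 to 2143 with 1 library left out (810, 840 and 948 without null BMM replicates 3, 2 and 4, and 1046 without null OC replicate 3), while 2 to 5 other complement genes passed in place of 3 (5 without null BMM replicate 6). The cause of these shifts was not tested. Same-numbered libraries did not deviate together (0 to 3 of 6 pairs over a correlation of 0.1), and the replicate block alone changed no call of the 8 genes. Low counts of Cfb and of the terminal components limit their precision.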
